A study of Homo sapiens with 4 samples.

Results

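GDF15, the 3 sestrin genes SESN1, SESN2 and SESN3, and DDIT4 were followed in the established human colorectal carcinoma line HCT116 after exposure to the piperine derivative HJ-4. The 5 genes were chosen by name, as a stress-induced cytokine and stress-induced inhibitors of mTORC1, from the 20263 Ensembl gene IDs of the deposited count table, and all 5 were among the 14044 genes tested. The libraries came from cells labelled WT for genotype that received DMSO at 0.1% as the vehicle or HJ-4 at 32 µM, in both cases for 24 h, with 2 libraries per condition. A figure legend of the study names a lower dose than its methods and the sample labels, and the methods speak of biological triplicates. The labels do not say which cultures the 2 libraries of each condition stem from, and p-values measure the spread between these libraries. That spread was larger than counting noise, with a chi-square per degree of freedom over genes of 36.5 for DMSO and 21.9 for HJ-4.

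GDF15 encodes a secreted, distant member of the TGF-beta family that many stressed cells release and that acts on the brainstem receptor GFRAL with RET as its co-receptor. Sestrins restrain mTORC1, the kinase complex that drives protein synthesis and growth when amino acids are plentiful. SESN2 binds leucine, and its leucine-free form holds back GATOR2, which leaves GATOR1 free to switch off the Rag GTPases that bring mTORC1 to the lysosome. DDIT4 encodes REDD1, which restrains mTORC1 by a separate route through the TSC complex and RHEB. p53 is a known inducer of GDF15, SESN1 and SESN2, ATF4 of GDF15, SESN2 and DDIT4, FOXO factors of SESN1 and SESN3, and hypoxia and glucocorticoids of DDIT4.

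The HJ-4 and DMSO libraries held 29769568 to 34359889 counts, 6.01% to 7.73% of them in mitochondrially encoded genes, with the higher value in DMSO replicate 2. The epithelial markers EPCAM, KRT8, KRT18, KRT19, CDH1 and CDX2 were present in every library, while VIL1 and LGALS4 had at most 15 counts. The leukocyte markers PTPRC, CD3E, CD14 and LYZ together had 7 to 16 counts per library. Of the fibroblast markers, COL1A1 lay between 57.7 and 63.2 CPM, counts scaled to library size, and COL1A2 and DCN were at 0 in all 4 libraries. Whether those zeros mean absent mRNAs or reads that the counting left out was not tested. The endothelial markers PECAM1, VWF and CDH5 summed to 22 to 49 counts per library.

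The regions just upstream of GDF15, SESN2 and DDIT4 are shown because the levels of GDF15 and SESN2 were higher with HJ-4 in every library while those of DDIT4 overlapped. Each run is the 250 bases before the RefSeq transcription start on GRCh38.p14, read 5′ to 3′ on the strand of the gene, which is the plus strand for all 3. GDF15 is at chr19:18385908-18386157, SESN2 at chr1:28259268-28259517 and DDIT4 at chr10:72273674-72273923. Capitals mark matches, on either strand, to the letters searched.
GDF15: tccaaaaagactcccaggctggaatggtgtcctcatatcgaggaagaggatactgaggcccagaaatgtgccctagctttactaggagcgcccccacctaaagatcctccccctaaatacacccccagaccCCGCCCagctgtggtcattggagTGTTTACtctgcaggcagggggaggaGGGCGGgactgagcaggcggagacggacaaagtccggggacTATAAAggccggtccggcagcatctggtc
SESN2: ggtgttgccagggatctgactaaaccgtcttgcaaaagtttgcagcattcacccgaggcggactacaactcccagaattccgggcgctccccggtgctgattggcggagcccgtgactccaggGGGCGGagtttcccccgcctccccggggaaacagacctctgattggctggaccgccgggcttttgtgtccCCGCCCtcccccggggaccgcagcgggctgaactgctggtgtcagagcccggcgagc
DDIT4: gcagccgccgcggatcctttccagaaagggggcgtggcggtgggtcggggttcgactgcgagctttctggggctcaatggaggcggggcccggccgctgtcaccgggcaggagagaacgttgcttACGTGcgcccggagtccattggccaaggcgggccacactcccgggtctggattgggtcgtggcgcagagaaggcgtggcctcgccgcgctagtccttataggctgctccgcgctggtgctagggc

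The GDF15 window held a TATA box (TATAAA), whose first letter lies 29 bases upstream of the start, a forkhead core (TGTTTAC) 96 bases upstream, and 2 GC boxes (GGGCGG or its complement) at 119 and 70 bases. A TATA box was found in 10.7% of the 35116 RefSeq promoter windows of the same length and a forkhead core in 2.98%. The SESN2 window held 2 GC boxes, at 127 and 57 bases, which 42.6% of all windows have at least once. The DDIT4 window held the hypoxia response core ACGTG at 125 bases, found in 18.5% of all windows. RefSeq lists 3 windows for SESN1, each with at least 1 GC box, and 1 of them also has an antioxidant response core (TGACNNNGC), found in 10.9% of windows. The SESN3 window held none of the letters searched, and at 42.8% it had the lowest GC content of the 7 windows. Sites spelled with other letters, or lying outside these windows, were not searched for. The letters TGATGNAA (ATF4 with C/EBP), TGACGTCA (CREB and ATF factors), CACGTG (E-box; overlaps ACGTG) and a pair of CATG cores 6 bases apart (p53) were in none of the 7 windows, and in 3.14%, 1.65%, 6.34% and 0.296% of all windows.

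Measured per length, DDIT4 and GDF15 were the most abundant of the 5 mRNAs in both conditions, and SESN2 was the most abundant sestrin. In units of CPM per kb of the MANE Select transcript, the reference transcript chosen jointly by RefSeq and Ensembl, DDIT4 was at 538 ± 84.2 with DMSO (SD, n = 2), GDF15 at 127 ± 8.73 and SESN2 at 19.2 ± 2.86. SESN3 followed at 3.93 ± 0.14 and SESN1 at 3.64 ± 0.057 CPM per kb. With HJ-4 the level of GDF15 was 316 ± 6.13 CPM per kb, that of SESN2 41.8 ± 2.28 and that of DDIT4 546 ± 6.14. SESN1, at 4.68 ± 0.28 CPM per kb, lay above SESN3, at 3.55 ± 0.16, in both HJ-4 libraries, whereas SESN3 lay above SESN1 in both DMSO libraries. The group means of SESN1 and SESN3 kept this order in both conditions when the union of all GENCODE exons was used as the length, an alternative chosen after seeing the data. The smallest count behind any of these values was 613, for SESN1 in DMSO replicate 2, with an exact Poisson 95% interval of 565 to 664 that covers counting error only.

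GDF15 rose with HJ-4. It was at 160 and 145 CPM (with library sizes scaled by TMM, trimmed mean of M values) in DMSO replicates 1 and 2 and at 374 and 385 CPM in HJ-4 replicates 1 and 2. The HJ-4 libraries lay far above the DMSO libraries and differed from each other by less than the DMSO libraries did. The log2 fold change was 1.32 (standard error 0.09, 95% interval 1.09 to 1.54), a 2.49-fold higher level, with an adjusted p of 0.046 from edgeR's quasi-likelihood test. GDF15 ranked 7 of 14044 genes by p. It was the only one of the 5 genes past the threshold of an adjusted p below 0.05, which 0.0427% of all tested genes passed as higher. Its adjusted p was 0.21 when HJ-4 replicate 1 was left out, 0.20 without HJ-4 replicate 2 and, when libraries were scaled by total counts, 0.050, and its log2 fold change in those fits was 1.35, 1.29 and 1.29. In bulk RNA, a change in the amount per cell and a change in the mix of cells cannot be told apart.

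**Figure D1:**
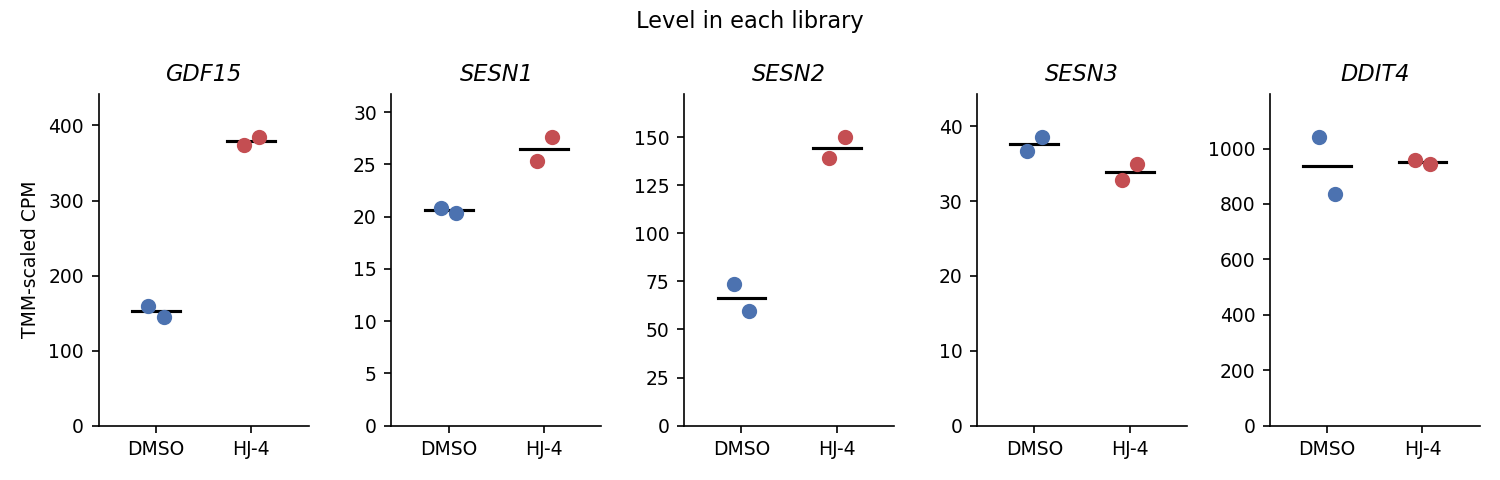
TMM-scaled CPM (linear axes from 0, a separate scale for each gene) of GDF15, SESN1, SESN2, SESN3 and DDIT4 in the 2 DMSO and 2 HJ-4 libraries. Each point is a library and each horizontal line a group mean; for GDF15 the DMSO points lie at 145 and 160 and the HJ-4 points at 374 and 385, while for DDIT4 the HJ-4 points lie between the DMSO points.

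SESN2, the leucine-binding sestrin, was also higher in both HJ-4 libraries, without passing the adjusted threshold in edgeR. Its level was 73.5 and 59.5 CPM in DMSO replicates 1 and 2 and 139 and 150 CPM in HJ-4 replicates 1 and 2. The gap between the highest DMSO and the lowest HJ-4 library was 0.92 on the log2 scale. The log2 fold change was 1.12 (standard error 0.13, 95% interval 0.79 to 1.45), or 2.17-fold, with an adjusted p of 0.086 from edgeR. SESN2 passed with DESeq2 (adjusted p = 1.0e-10), a test that called 2.58% of the genes it gave an adjusted p as higher, and GDF15 and SESN2 were the 2 of the 5 genes it called. The DMSO libraries differed 1.24-fold for SESN2. Without DMSO replicate 1, the higher of them, its log2 fold change was 1.28 and its adjusted p in edgeR was 0.034, and without DMSO replicate 2 they were 0.98 and 0.059.

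SESN1, a long-known p53 target, had a smaller difference in the same direction. It was at 20.8 and 20.4 CPM in DMSO replicates 1 and 2 and at 25.4 and 27.6 CPM in HJ-4 replicates 1 and 2. The conditions did not overlap, with HJ-4 the higher by a gap of 0.28 on the log2 scale. The log2 fold change was 0.36 (standard error 0.10, 95% interval 0.11 to 0.62, unadjusted p = 0.015), and the adjusted p was 0.23 from edgeR and 0.17 from DESeq2. The interval is that of this 1 gene and is not adjusted for the number of genes tested.

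SESN3, the sestrin best known as a FOXO target, did not share that direction. It was at 36.7 and 38.6 CPM in DMSO replicates 1 and 2 and at 32.8 and 35.0 CPM in HJ-4 replicates 1 and 2. The HJ-4 libraries lay below the DMSO libraries by a gap of 0.07 on the log2 scale, which is smaller than the difference between the libraries of either condition on that scale. The log2 fold change was -0.15 (standard error 0.10, 95% interval -0.40 to 0.10, adjusted p = 0.49 from edgeR). The MANE transcript of SESN3 has a 3' UTR of 7745 bases in a total of 9563, against 1692 of 3462 for SESN2 and 244 of 1200 for GDF15.

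DDIT4, the gene of REDD1, was the most abundant of the 5 and showed no separation of the conditions. It was at 1042 and 835 CPM in DMSO replicates 1 and 2 and at 960 and 945 CPM in HJ-4 replicates 1 and 2. Both HJ-4 libraries lay between the DMSO libraries. The log2 fold change was 0.02 (standard error 0.12, 95% interval -0.29 to 0.34, adjusted p = 0.95 from edgeR), which leaves room for a level 0.815-fold to 1.26-fold that of DMSO. The sign turned on the vehicle libraries: the log2 fold change was 0.19 without DMSO replicate 1 and -0.13 without DMSO replicate 2. DMSO replicate 1 was the higher vehicle library for GDF15, SESN2 and DDIT4 alike, by 1.10-fold, 1.24-fold and 1.25-fold.

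By raw, unadjusted p below 0.05 in edgeR, 3 of the 5 genes were higher (GDF15, SESN2 and SESN1) and 0 lower, where 7.93% of all tested genes were higher and 7.93% lower. The HJ-4 levels were above those with DMSO, without overlap, for those 3 genes and below them for SESN3, against 25.2% of all tested genes above and 25.6% below. The median log2 fold change was 0.36 for the 5 genes and 0.0040 for all genes tested.

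**Figure D2:**
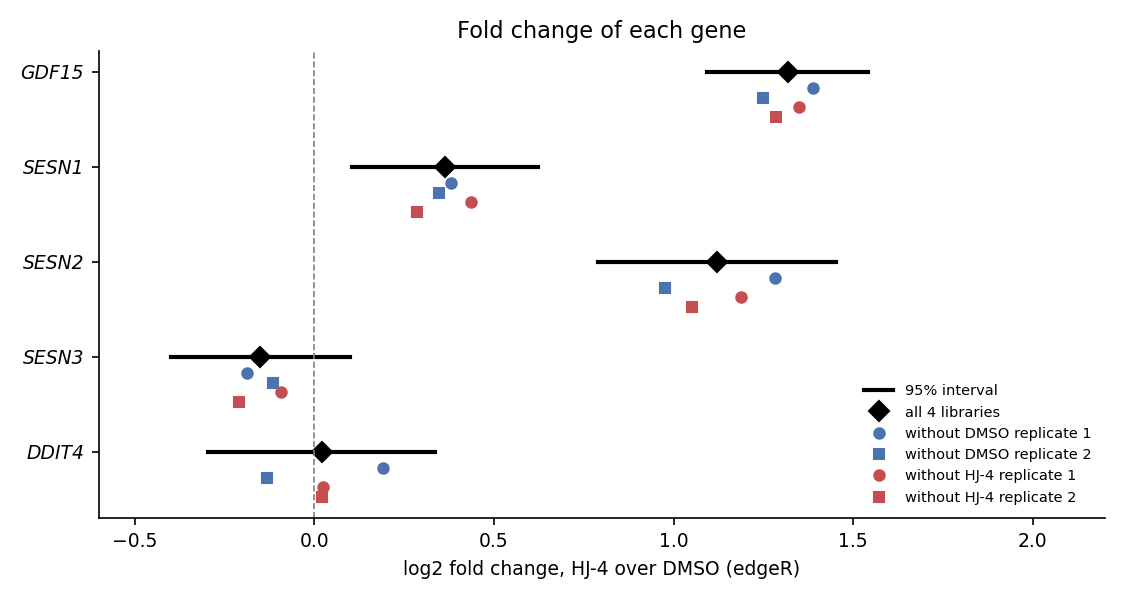
Log2 fold change (HJ-4 over DMSO, edgeR) of each gene from all 4 libraries (black diamonds, with the 95% interval as a black line) and with each library left out in turn (blue and red symbols). GDF15 stays between 1.25 and 1.39 and SESN2 between 0.98 and 1.28, while DDIT4 lies at -0.13 and 0.19 on either side of 0 depending on which DMSO library is left out.

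SESN2 made up a larger share of sestrin mRNA in both HJ-4 libraries. Of the summed sestrin signal per kb of MANE transcript, SESN2 made up 73.9% and 69.2% in DMSO replicates 1 and 2 and 83.5% and 83.6% in the HJ-4 libraries. SESN1 made up 12.8% and 14.5% with DMSO and 9.32% and 9.40% with HJ-4, and SESN3 went from 13.3% and 16.3% to 7.14% and 7.05%. The sestrin sum was 28.7 and 24.8 CPM per kb with DMSO and 48.1 and 51.9 CPM per kb with HJ-4. Ratios of counts within a library do not depend on how libraries are scaled against each other. The log2 ratio of SESN2 to SESN1 was 1.82 and 1.55 with DMSO and 2.45 and 2.44 with HJ-4, a difference of 0.77. The log2 ratio of SESN2 to SESN3 differed by 1.28 between conditions, that of SESN2 to DDIT4 by 1.10 and that of GDF15 to DDIT4 by 1.29. The log2 ratio of GDF15 to SESN2 was 1.12 and 1.28 with DMSO and 1.43 and 1.36 with HJ-4, a difference of 0.19. The ratio of GDF15 to DDIT4 was not among those planned, and the ratios share genes, so they are not independent of each other. Each of these 5 ratios was higher in both HJ-4 libraries than in either DMSO library. The exact two-sided permutation test gave p = 0.333 for each, before and after adjustment over the 5, which is the smallest p that 2 against 2 libraries allow.

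**Figure D3:**
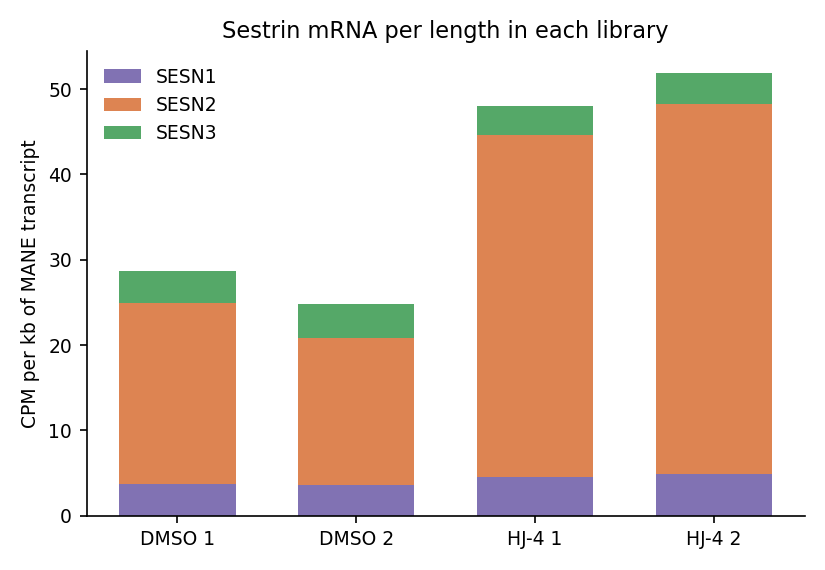
Stacked CPM per kb of MANE transcript of SESN1, SESN2 and SESN3 in each library, on a linear axis from 0. The bars sum to 28.7 and 24.8 in the DMSO libraries and to 48.1 and 51.9 in the HJ-4 libraries, and the SESN2 segment holds nearly the whole of the difference.

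In GENCODE v44 on GRCh38, GDF15 (ENSG00000130513) spans 18374731 to 18389176 on chromosome 19, although its RefSeq start lies near the end of that span. SESN1 (ENSG00000080546) spans 108984309 to 109094846 on the minus strand of chromosome 6 and SESN3 (ENSG00000149212) 95165513 to 95232541 on the minus strand of chromosome 11. SESN2 (ENSG00000130766) lies on chromosome 1 from 28259518 to 28282491 and DDIT4 (ENSG00000168209) on chromosome 10 from 72273919 to 72276036. Exons of SESN1 and SESN3 each overlap exons of a long noncoding RNA on the opposite strand, neither of which has a row among the counts. The sources used here do not say whether counting took strand into account.

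The genes whose profiles over the 4 libraries lay closest to each of the 5 were found among 11176 genes that averaged 5 CPM or more, as the Euclidean distance between centred log2 CPM values. The closest to GDF15 were ZMYND11 (distance 0.073) and TERF2IP (0.15). The closest to SESN2 were DBP (0.049) and again TERF2IP (0.086). Only 1 gene lay within 0.1 of GDF15 and 3 within 0.1 of SESN2. SESN1 had 92 such genes, led by PRDM11 and PRX, DDIT4 had 198, led by GRWD1 and GFOD2, and SESN3 had 410, led by MYLK and GLE1. The values were centred but not scaled, so the number of close genes depends on the size of the difference between conditions. By log2 fold change GDF15 and SESN2 lay at percentiles 99.2 and 98.9 of all genes tested, where few genes lie. With 4 libraries such likeness is a description.

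GFRAL, the receptor gene, was listed at 0 counts in all 4 libraries, which allows up to 3 counts, or 0.101 CPM in the shallowest library, for counting error only. That bound does not cover reads that the counting may have left out for GFRAL, which was not tested. RET, its co-receptor, lay between 25.1 and 28.4 CPM and overlapped between conditions (log2 fold change -0.06). FURIN, a proprotein convertase named outside the rule for naming genes given below, lay between 203 and 228 CPM. For its relative PCSK7 the log2 fold change was -0.32 (adjusted p = 0.28 from edgeR). None of the 6 tested genes of GDF15 reception and processing passed the adjusted threshold in edgeR or DESeq2, and 1 was lower at a raw p below 0.05. Among other ligands of the TGF-beta family, 19 of 31 were tested, 13 of them with a negative log2 fold change and a median of -0.09. None passed in edgeR. At a raw p below 0.05, 0 were higher and 2 lower, where 7.93% of all tested genes were higher and 7.93% lower. DESeq2, which called 1.95% of all its genes lower, called 1 lower. That gene was TGFB1, at 126 and 126 CPM with DMSO and 90.2 and 100.1 CPM with HJ-4 (log2 fold change -0.40).

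No gene of the machinery that sestrins act on passed the adjusted threshold in edgeR, which only 7 of all 14044 tested genes passed. With so few calls over all genes, the lack of a call in a short list says little about its genes. Of 17 genes of GATOR, KICSTOR and other amino acid sensors, 8 had a positive and 9 a negative log2 fold change, and their median was -0.10. At a raw p below 0.05, 2 were higher and 4 lower, where 7.93% of all tested genes were higher and 7.93% lower. DESeq2, which called 2.58% of all its genes higher, called 1 higher (LARS1, the leucyl-tRNA synthetase gene, named after its value was seen). The GATOR1 subunit gene NPRL2 stood at a log2 fold change of -0.36, with the HJ-4 libraries below the DMSO libraries (adjusted p = 0.21 from edgeR). BMT2, which encodes the S-adenosylmethionine sensor SAMTOR, had -0.54, and SEC13, a GATOR2 subunit that also serves COPII vesicles and nuclear pores, had 0.29. Of 12 genes of the Rag GTPases, the Ragulator and folliculin, none passed in edgeR. LAMTOR1, which anchors the Ragulator to the lysosome, was at 31.4 and 29.3 CPM with DMSO and 53.3 and 52.2 CPM with HJ-4 (log2 fold change 0.80, adjusted p = 0.086 from edgeR). LAMTOR1 was the 1 gene of that list with a raw p below 0.05 and the 1 called by DESeq2, and the median of the 12 was 0.01.

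On the REDD1 route, DDIT4L, the paralogue of DDIT4, was lower in both HJ-4 libraries. It was at 20.4 and 17.7 CPM with DMSO and 11.7 and 11.2 CPM with HJ-4. Its log2 fold change was -0.74 with a standard error of 0.12 (adjusted p = 0.14 from edgeR and 0.0037 from DESeq2). DDIT4L was the 1 of 12 tested genes of the TSC complex, RHEB and REDD1 partners with a raw p below 0.05. Of all tested genes, 7.93% were lower at that raw p. None of the 12 passed in edgeR, and their median was -0.09. TSC1 and TSC2 had log2 fold changes of -0.08 and -0.10, and the sign for TSC1 turned without DMSO replicate 2. TXNIP, a REDD1 partner, was listed at 0 counts in all 4 libraries, as was CBS of the ATF4 target list. Whether such zeros mean an absent mRNA or reads that the counting left out was not tested, so they are no measure of expression.

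Of 11 tested subunits of mTORC1 and mTORC2, none passed in edgeR or DESeq2, and 1 was higher at a raw p below 0.05 and 0 lower. That gene was DEPTOR, an inhibitory subunit, with a log2 fold change of 0.36. MTOR, the kinase, was at 73.4 and 82.9 CPM with DMSO and 76.7 and 75.4 CPM with HJ-4 (log2 fold change -0.04, 95% interval -0.28 to 0.20), and RPTOR, which recruits its substrates, had -0.15. Of 19 substrates and outputs of mTORC1, none passed in edgeR. At a raw p below 0.05, 2 were higher and 1 lower, and DESeq2 called the same numbers. Over all tested genes, 7.93% were higher and 7.93% lower at that raw p. DESeq2 called 2.58% of all its genes higher and 1.95% lower. EIF4EBP1, a repressor of cap-dependent translation, was at 78.6 and 70.0 CPM with DMSO and 100.1 and 106.9 CPM with HJ-4 (log2 fold change 0.48), whereas its paralogue EIF4EBP2 had a log2 fold change of -0.35. LPIN1, a lipid phosphatase that mTORC1 phosphorylates, had 0.54 (adjusted p = 0.13 from edgeR). Of 12 AMPK genes, 3 were higher and 0 lower at a raw p below 0.05. None of them passed in edgeR, and DESeq2 called 1 higher (PRKAG1, log2 fold change 0.42). These are mRNA levels and hold no measure of mTORC1 activity.

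Of 12 redox partners of the sestrins, 8 had a positive log2 fold change and the median was 0.24. None passed in edgeR. At a raw p below 0.05, 5 were higher and 0 lower, where 7.93% of all tested genes were higher and 7.93% lower. DESeq2 called 5 higher, against 2.58% of all its genes. SQSTM1, the gene of the KEAP1-binding autophagy receptor p62, was at 519 and 455 CPM with DMSO and 678 and 671 CPM with HJ-4 (log2 fold change 0.47). SRXN1, which encodes sulfiredoxin, had 0.39 and HMOX1, the gene of heme oxygenase, 0.55 (adjusted p = 0.16 from edgeR for both).

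**Figure D4:**
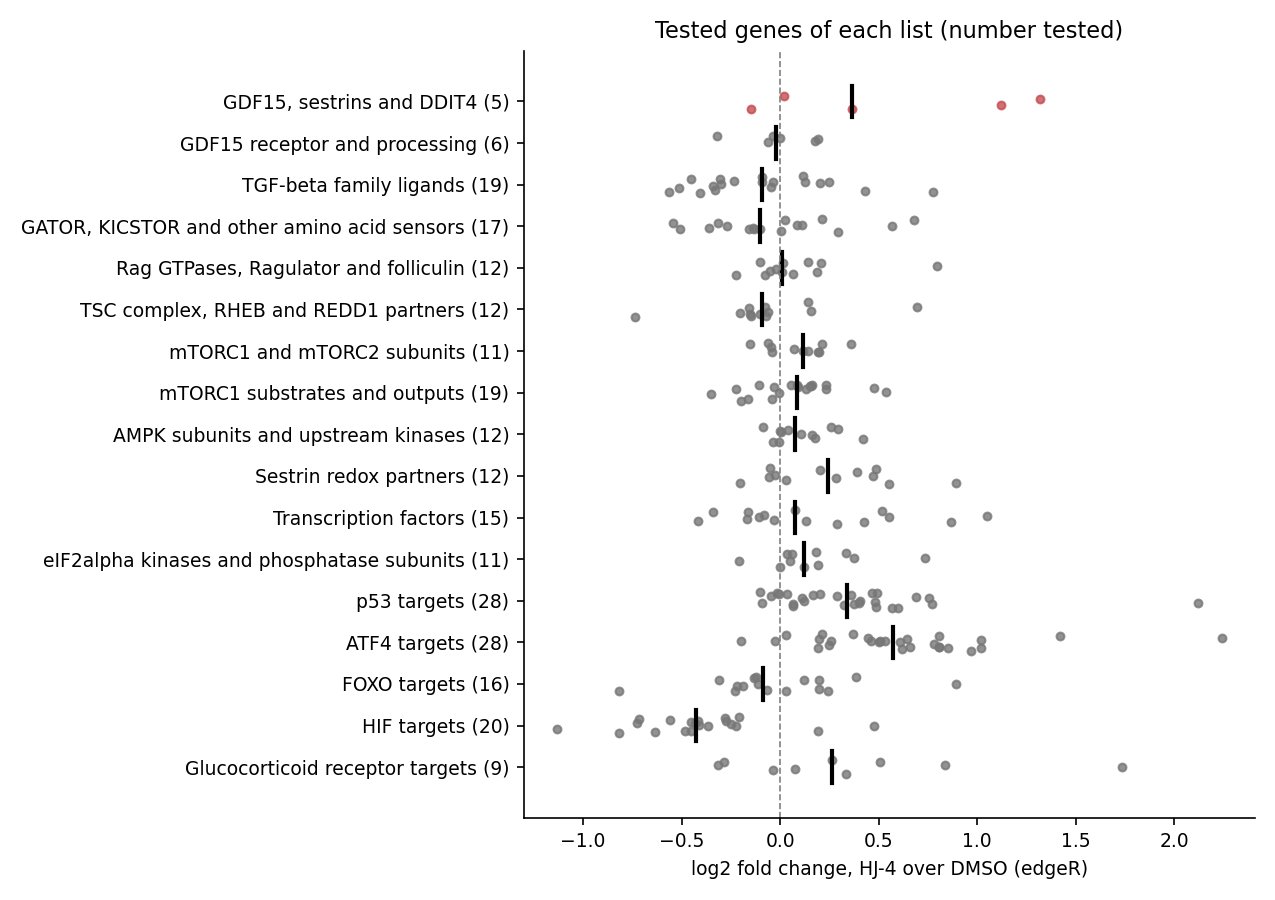
Log2 fold change (HJ-4 over DMSO, edgeR) of every tested gene of each list, with the number tested in parentheses. Points are genes, spread vertically at random within a row, and black bars are list medians, at 0.57 for the ATF4 targets, 0.34 for the p53 targets, -0.09 for the FOXO targets and -0.42 for the HIF targets.

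The known inducers of the 5 genes differed in how their own mRNAs and their other targets stood. ATF4 was at 637 and 591 CPM with DMSO and 827 and 821 CPM with HJ-4 (log2 fold change 0.42, adjusted p = 0.15 from edgeR), and DDIT3, the gene of CHOP, had 0.87 (adjusted p = 0.16 from edgeR). Of 15 tested inducers none passed in edgeR, and DESeq2 called 3 higher, against 2.58% of all its genes. At a raw p below 0.05, 5 were higher and 1 lower, where 7.93% of all tested genes were higher and 7.93% lower. The lower one was NR3C1, the glucocorticoid receptor gene (-0.42, named after its value was seen). PPP1R15A, the ATF4 pathway's feedback phosphatase subunit, was at 139 and 132 CPM with DMSO and 222 and 229 CPM with HJ-4 (log2 fold change 0.74, adjusted p = 0.079 from edgeR and 1.3e-11 from DESeq2). It and 1 other of 11 genes of eIF2alpha kinases and phosphatase subunits were higher at a raw p below 0.05. None of the 11 passed in edgeR, and DESeq2 called 1 higher (PPP1R15A).

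Set beside the other targets of these inducers, GDF15 and SESN2 each had a larger log2 fold change than all but 1 of 28 p53 targets (BBC3) and all but 2 of 28 ATF4 targets (ATF5 and SLC7A11). SESN1, at 0.36, lay near the median of the p53 targets, and DDIT4, at 0.02, lay below the median of the ATF4 targets. Among the 28 p53 targets tested, 23 were positive and the median was 0.34. Among them 15 were higher and 0 lower at a raw p below 0.05, 1 was called by edgeR (BBC3, 2.12) and 9 by DESeq2. Of 28 tested ATF4 targets, 26 were positive with a median of 0.57. In that list 20 were higher and 0 lower at a raw p below 0.05, 1 was called by edgeR (ATF5, 2.24) and 14 by DESeq2, and TRIB3 had 1.02 and ASNS 0.81. The HIF list, like the ATF4 list, shares an inducer with DDIT4. Of 20 HIF targets, 18 were negative with a median of -0.42. None passed in edgeR, 1 was higher and 13 lower at a raw p below 0.05, and DESeq2 called 1 higher and 8 lower against 2.58% and 1.95% of all genes, with BNIP3 at -0.82 and EGLN1 at -0.72. Of 9 tested targets of the glucocorticoid receptor, a further inducer of DDIT4, 4 were higher and 1 lower at a raw p below 0.05. Their median was 0.26, none passed in edgeR, and DESeq2 called 3 higher and 0 lower. For TSC22D3, the gene of GILZ, the log2 fold change was 1.73, with an adjusted p of 0.079 from edgeR and 2.2e-15 from DESeq2. FKBP5, the lower one at that raw p, had -0.31. Of 16 FOXO targets, beside SESN1 and SESN3, 7 were positive with a median of -0.09. Among the 16, 1 was higher and 2 lower at a raw p below 0.05, and none passed in edgeR. DESeq2 called 1 of them higher and 1 lower. BNIP3 is in both the FOXO and the HIF list, and VEGFA, named after its value was seen, in both the ATF4 and the HIF list. Over all 14044 genes, 7122 were positive and the median was 0.0040. At a raw p below 0.05, 7.93% of them were higher and 7.93% lower.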

How the data were processed

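RNA sequencing of 2 DMSO and 2 HJ-4 libraries of HCT116 cells was analysed. The values deposited by the authors are unnormalized counts for each Ensembl gene ID. The study's methods name FastQC, Trimmomatic, STAR, GRCh38 and featureCounts, and the submitters' processing notes FastQC, Trimmomatic, HISAT2, bedtools and RSEM; the sources used here do not say which made the counts, and the choice can move genes with overlapping or repeated sequence. Columns were matched to samples by library name and IDs to GENCODE v44 symbols (20148 of 20263). Promoter windows came from RefSeq on GRCh38.p14 (5 of 5 genes matched).

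Genes kept by filterByExpr (14044) were TMM-scaled and fitted with glmQLFit, then tested with glmQLFTest (edgeR 4.0.16, R 4.3.3), condition being the only term, with Benjamini-Hochberg adjustment over all genes tested. The study names limma; edgeR was used because the values are counts. Standard errors came from the F statistic and 95% intervals from 4.99 degrees of freedom. Ratios used counts plus 0.5. The fits were first tested on simulated data. Alternatives were a replicate block, each library left out, DESeq2 size factors, total counts, no filter, a mean of at least 5 CPM, DESeq2 1.42.0, limma-voom 3.58.1, an absolute log2 fold change over 1.2 and exon-union lengths, the last chosen after seeing the data.

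The 5 genes and 16 lists were chosen with earlier results of these data known. Beyond the 5 genes and a fixed set of core pathway genes, up to 4 tested genes of each list with the smallest p, and the 2 closest profiles of each gene, could be named. Some genes of these lists that the rule would name are not reported here.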

Additional observations from a re-analysis of the deposited data

How the results depend on the processing

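GDF15 and SESN2 kept a positive and SESN3 a negative log2 fold change under every alternative run, as did SESN1 a positive one. Leaving out each library in turn gave log2 fold changes of 1.25 to 1.39 for GDF15, 0.29 to 0.44 for SESN1, 0.98 to 1.28 for SESN2, -0.21 to -0.093 for SESN3 and -0.13 to 0.19 for DDIT4. The log2 fold change of DDIT4 was -0.0076 with total counts. That of GDF15 was 1.29 with total counts, where it did not pass (adjusted p = 0.050), and that of SESN2 was 1.12 with DESeq2, where it passed. Of the 5 genes, 2 were called by DESeq2, 0 with total counts, and 0 to 2 with a library left out. Over all genes edgeR called 7, and the count was 0 to 88 with a library left out, 12 without a filter and 574 with DESeq2. No gene was called without HJ-4 replicate 1 or 2 (1030 and 1184 at an unadjusted p under 0.05). A lone library of a condition was assumed to vary like the other condition. With the replicate number as a block 31 genes were called, GDF15 among them (adjusted p = 0.021), and SESN2 had an adjusted p of 0.062. The deviations of same-numbered libraries from their group means had a correlation of -0.043 across 14044 genes, so the numbers were not taken to pair the libraries. With a library left out the sign turned for RET (-0.14 to 0.022), AKT1S1 (-0.013 to 0.28), MTOR (-0.13 to 0.049) and TSC1 (-0.25 to 0.11). Over all alternatives the median of the mTORC1 and mTORC2 subunits ran from -0.01 to 0.16, that of the Rag and Ragulator genes from -0.06 to 0.07, that of the redox partners from 0.10 to 0.36 and that of the HIF targets from -0.45 to -0.38. With exon-union lengths SESN2 made up 85.9% of sestrin signal with HJ-4. The cause of these shifts was not tested. With 2 libraries per condition the difference of SESN1 did not pass after adjustment in edgeR or DESeq2. DESeq2 passed some genes with a difference of like size, such as EIF4EBP2 (-0.35). EIF4EBP2 had the higher level, with a DMSO mean of 137 CPM against 20.6 CPM for SESN1. Whether the level bears on which of them passed was not tested.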
